A study of Mus musculus with 4 samples.

Results

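The genes described here are 9 regulators and markers of the formative and primed states of pluripotency: *Zic2*, *Zic5*, *Otx2*, *Pou3f1*, *Gbx2*, *Sox3*, *Sall2*, *Fgf5* and *Fgf15*. They were selected by name, with the RNA levels of these same libraries already known, and 7 of the 9 have a value among the 9779 genes analysed. *Pou3f1* and *Sox3* were not analysed here. RNA-Seq was performed on the female mouse ESC line LF2 (129/J strain), which had been grown on feeder cells and passaged without them before treatment. All cells were treated for 24 hr. The PBS+DMSO cells received both vehicles, the PBS+GSK-J4 cells received 10 μM GSK-J4, the AA+DMSO cells received 50 μg/ml L-ascorbic acid (AA), and the AA+GSK-J4 cells received both agents. There was 1 library per condition from 1 cell line. Each difference below therefore has no replicate check, and no test was run. A lower value in a population of cells can come from fewer cells that express a gene or from less RNA per cell, and these cannot be told apart.

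Mouse ESCs are held in a naive state that resembles the early epiblast. On the way to differentiation they pass through a formative state and then a primed state, in which the naive factors are switched off and genes such as *Otx2*, *Fgf5* and *Dnmt3b* are switched on. FGF signalling drives this transition, and many of the genes involved later pattern the anterior nervous system. GSK-J4 enters cells and blocks demethylases of the JmjC family, which take methyl groups off histone lysines. AA helps to keep enzymes of this family active.

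The values are FPKM, in which the fragments of a gene are divided by its length and by the sequenced total, so levels can be compared between genes. Genes of the core pluripotency network were highly expressed in every library. *Pou5f1*, which encodes Oct4, ranged from 480 to 867 FPKM, *Sox2* from 155 to 223 and *Nanog* from 90.9 to 162. Against this, the formative and primed genes were weakly to moderately expressed. In PBS+DMSO their order was *Otx2* (16.6 FPKM), *Fgf15* (12.0), *Gbx2* (9.68), *Zic2* (7.59), *Zic5* (5.10), *Sall2* (2.80) and *Fgf5* (0.831). *Fgf5*, the standard marker of the primed epiblast, stayed below 1 FPKM in all 4 libraries, so the label primed is not borne out by its defining marker. With no replicates, it is not known which neighbours in this order differ beyond the spread between libraries.

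**Figure D1:**
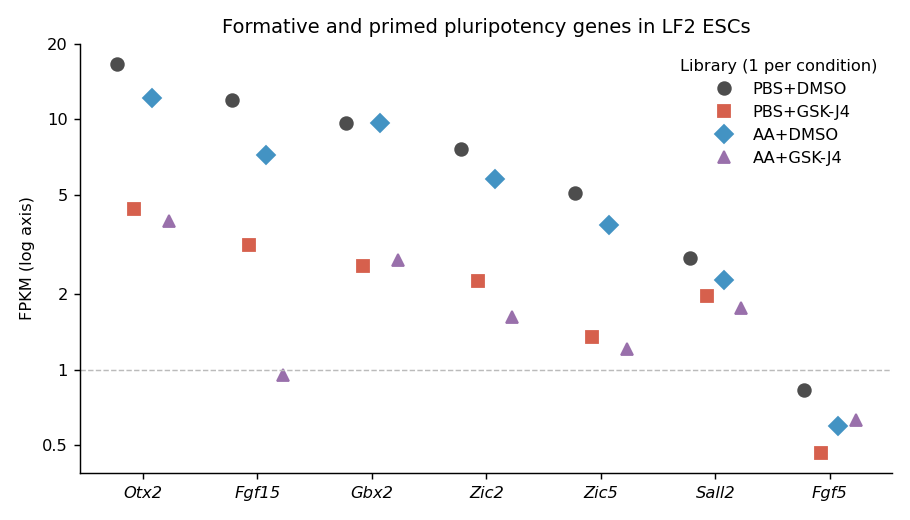
FPKM (log axis) of the 7 formative and primed genes with a value in the 4 libraries, 1 point per library. The GSK-J4 points of *Otx2*, *Fgf15*, *Gbx2*, *Zic2* and *Zic5* lie well below both DMSO points, those of *Sall2* lie closer to them, and *Fgf5* lies under the dashed line at 1 FPKM throughout.

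GSK-J4 treated cells had lower levels of 4 transcription factor genes of this group in both backgrounds. *Otx2* encodes a homeodomain factor that opens formative enhancers and later specifies the forebrain. Without AA its level was 16.6 FPKM with DMSO and 4.40 with GSK-J4, and with AA it was 12.2 and 3.93. Both GSK-J4 libraries were thus below both DMSO libraries, at 26.6% of the DMSO level without AA and 32.3% with AA. On the log2(FPKM + 1) scale used below, where differences of weak genes come out too small, the log2 ratios were -1.70 and -1.42.

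*Zic2* and *Zic5* encode zinc finger factors of the ZIC family, which acts in the epiblast and in the neural tube. *Zic2* was at 7.59 FPKM with DMSO and 2.25 with GSK-J4, and in the cells given AA at 5.76 and 1.62. *Zic5* was at 5.10, 1.35, 3.78 and 1.21 FPKM in the same order. The GSK-J4 libraries were the lowest for both genes, and *Zic2* exceeded *Zic5* in each of the 4 libraries. GSK-J4 left 29.6% of *Zic2* and 26.4% of *Zic5* without AA, and 28.1% and 31.9% with AA. The log2 ratios were -1.40 and -1.37 for *Zic2* and -1.38 and -1.11 for *Zic5*. The value of *Zic5* with AA lies close to the 2-fold threshold and was -0.897 when the libraries were scaled to the same total.

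*Gbx2* encodes a homeodomain factor that sets the border of the hindbrain against *Otx2*. It is also a target of LIF signalling that supports ESC self-renewal, so it is not a marker of the formative state alone. Both DMSO libraries held 9.68 FPKM, while the GSK-J4 libraries held 2.61 without AA and 2.73 with AA. The values fell into a DMSO pair and a GSK-J4 pair, with almost no difference within each pair. The log2 ratios were -1.57 without AA and -1.52 with AA. *Sall2*, a zinc finger gene of the spalt family, differed least among the transcription factors. Its level was 2.80 FPKM with DMSO and 1.96 with GSK-J4, and 2.29 and 1.77 where AA was added, with log2 ratios of -0.36 and -0.25. The *Sall2* value is the sum of 2 coding sequence groups. One of them was at 1.63 FPKM with DMSO and 1.13 with GSK-J4, and at 1.21 and 0.684 in the AA pair. The other was at 1.17 and 0.834 without AA, and at 1.08 and 1.09 with AA, so only the first group was lower with GSK-J4 in both pairs.

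Of the FGF ligands in the group, *Fgf15* encodes the mouse counterpart of human FGF19 and is expressed in the early nervous system. GSK-J4 libraries held 3.15 FPKM without AA and 0.948 with AA, beside 12.0 and 7.20 in the matching DMSO libraries. The AA+GSK-J4 library held 7.92% of the PBS+DMSO level. GSK-J4 left 26.4% without AA and 13.2% with AA, with log2 ratios of -1.64 and -2.07. *Fgf5* was at 0.831 FPKM with DMSO and 0.463 with GSK-J4 in PBS, and at 0.597 and 0.629 in AA. It did not reach the filter of 1 FPKM in any library, and its log2 ratios were -0.32 and 0.03.

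Of the 7 genes with a value, 6 passed the filter of 1 FPKM in either library of a comparison, and 5 were at least 2-fold lower with GSK-J4 without AA. The same number, and the same genes, were at least 2-fold lower with AA. None of the 6 was at least 2-fold higher. Of the 8972 genes that passed the filter in both comparisons, 165 (1.84%) were at least 2-fold lower in both. Among all genes that passed the filter, 3.5% were at least 2-fold lower without AA and 3.38% with AA, while 4.96% and 4.13% were at least 2-fold higher. *Fgf15* passed the filter with AA through its DMSO library alone. Because the group was selected with these levels known, the counts describe the group and are not evidence for it. The median log2 ratio of the 6 genes was -1.48 without AA and -1.39 with AA, beside -0.17 and -0.16 for all genes. Without AA, the part of the DMSO level that remained lay between 26.4% and 29.6% for all 5 genes that were at least 2-fold lower. With AA, *Zic2* and *Gbx2* kept almost the same share, *Otx2* and *Zic5* kept somewhat more, and *Fgf15* kept less. The log2 ratio with AA minus that without AA was -0.43 for *Fgf15*, 0.26 for *Zic5*, 0.28 for *Otx2*, 0.05 for *Gbx2* and 0.03 for *Zic2*. These differences could not be tested.

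**Figure D2:**
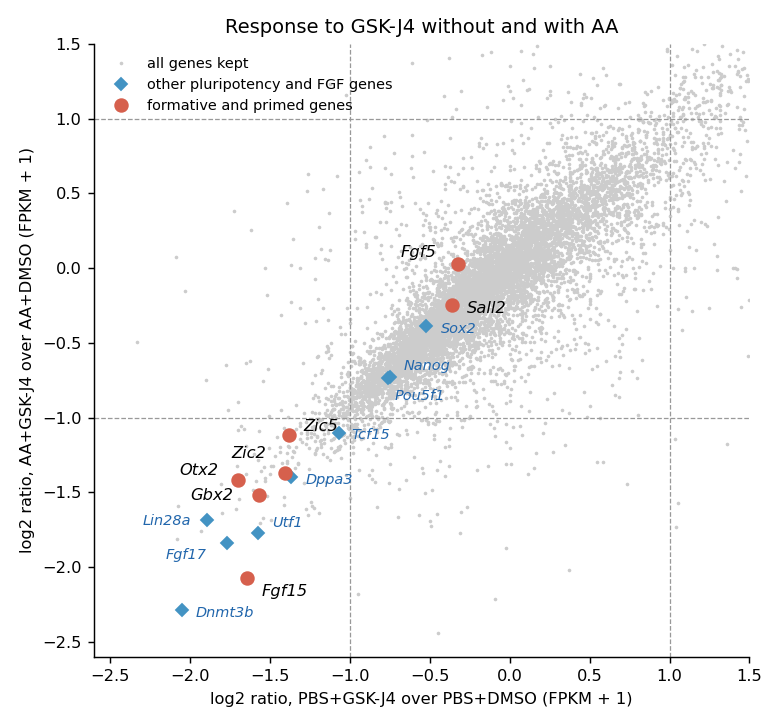
Log2 ratios of GSK-J4 over DMSO, on FPKM + 1, without AA (x axis) and with AA (y axis), with the 2-fold thresholds dashed. *Otx2*, *Gbx2*, *Zic2*, *Zic5* and *Fgf15* lie in the lower left corner past both thresholds, near *Dnmt3b*, *Fgf17*, *Lin28a* and *Utf1*, while *Sall2* and *Fgf5* lie near the bulk of genes (grey). Of 9363 genes, 192 lie outside the plotted range.

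The share of all genes that moved depends on how the libraries are scaled, because the summed FPKM was 360621 and 342327 in the DMSO libraries (PBS, AA) but 275575 and 271205 in the GSK-J4 libraries. Without AA, 58.6% of the genes past 2-fold in either direction were higher for the deposited FPKM, and 79.7%, 84.3% and 89.4% were higher after centring on the median, division by the upper quartile and scaling to the same total. With AA these shares were 55.0%, 77.1%, 81.9% and 86.5%. Scaling to the same total moved the median of all genes to 0.17 without AA and 0.14 with AA. Under these 3 scalings, *Otx2*, *Zic2*, *Gbx2* and *Fgf15* stayed at least 2-fold lower in both comparisons. The background share of genes at least 2-fold lower was then 1.04% to 1.71% without AA and 1.08% to 1.66% with AA.

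AA alone was accompanied by lower levels of most of these genes. The libraries with PBS and with AA are in separate tables, and a common scale of the tables is not stated in the sources used here. These comparisons also use the same libraries as the GSK-J4 comparisons. In DMSO, the level with AA was 60.2% of that with PBS for *Fgf15*, 71.9% for *Fgf5*, 73.5% for *Otx2*, 74.1% for *Zic5*, 75.9% for *Zic2* and 81.8% for *Sall2*. *Gbx2* stood apart, at 100% of its PBS level. Thus 6 of 7 genes were lower. Of the 6 that passed the filter 5 were lower, and among all genes that passed it 62.4% were lower. None of the 6 genes that passed the filter was at least 2-fold lower or higher, as were 0.735% and 0.565% of all genes. The log2 ratios ranged from -0.66 for *Fgf15* to 0.00 for *Gbx2*, with a median of -0.35 beside -0.05 for all genes. Scaling to the same total left the 6 lower genes below their PBS level and put *Gbx2* slightly above it (0.07).

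In the presence of GSK-J4, AA was accompanied by a further difference in *Fgf15*, which was at 3.15 FPKM in PBS+GSK-J4 and 0.948 in AA+GSK-J4, a log2 ratio of -1.09. It was the only member at least 2-fold lower, as were 0.599% of all genes, and none was at least 2-fold higher, as were 0.512% of all genes. That call rests on a library below 1 FPKM. *Zic2* was at 71.8% of its PBS level, close to the value in DMSO. *Otx2*, *Zic5* and *Sall2* were at 89.3%, 89.7% and 90.1%, and *Gbx2* was at 105%. *Fgf5* was at 136%, with both values below 1 FPKM. With both agents together, the levels relative to PBS+DMSO were 21.3% for *Zic2*, 23.7% for *Zic5* and for *Otx2*, 28.3% for *Gbx2*, 63.2% for *Sall2* and 75.7% for *Fgf5*.

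**Figure D3:**
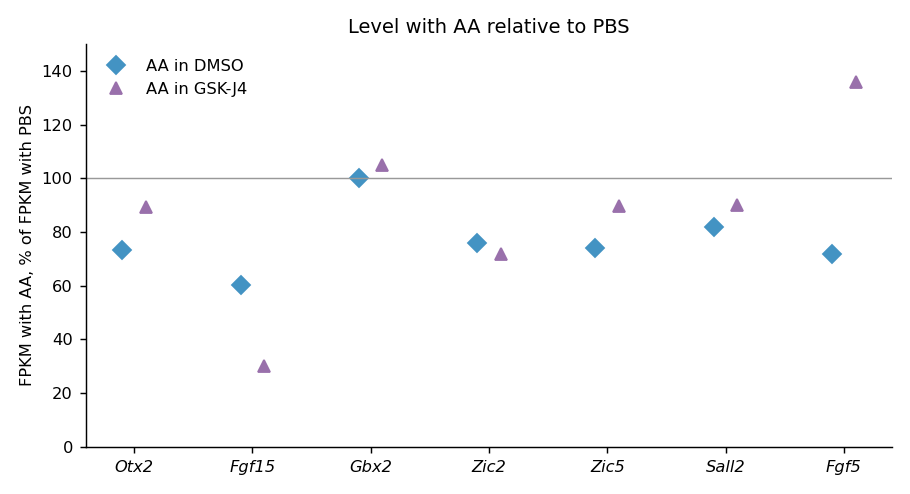
FPKM with AA as a percentage of FPKM with PBS, in DMSO (diamonds) and in GSK-J4 (triangles), 1 value per gene and background. In DMSO, 6 of the 7 genes lie below 100% and *Gbx2* lies on the line, and *Fgf15* is the lowest in both backgrounds.

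The order of the levels shifted with the treatments. *Otx2* ranked first in each of the 4 libraries. *Fgf15* ranked directly below it in both PBS libraries, one place lower in AA+DMSO, and above *Fgf5* alone in AA+GSK-J4. *Sall2*, below both *Zic* genes in the DMSO libraries, lay above *Zic5* in PBS+GSK-J4 and above both in AA+GSK-J4, where it was at 1.77 FPKM beside 1.62 for *Zic2* and 1.21 for *Zic5*.

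Other genes of the formative and primed states were counted from a list of 20, of which 16 have a value. Without AA, 3 of 16 were at least 2-fold lower with GSK-J4 and 1 was at least 2-fold higher, beside 3.5% and 4.96% of all genes. The median log2 ratio of the 16 was -0.72. The genes lower were *Dnmt3b*, *Tcf15* and *Grhl2*, and *Cldn6* was the gene higher, the last 2 named after their values were seen. With AA, 2 of 15 were at least 2-fold lower and none was at least 2-fold higher, beside 3.38% and 4.13% of all genes. The 2 lower genes were *Dnmt3b* and *Tcf15*, and the median of the 15 was -0.27. *Dnmt3b*, the de novo DNA methyltransferase gene that marks the exit from the naive state, differed most. Its level went from 48.2 FPKM with DMSO to 10.9 with GSK-J4 in PBS, and from 39.9 to 7.38 in AA. Its log2 ratios of -2.05 and -2.29 exceed in size those of the 7 genes above, but with AA this depends on the pseudocount, since by FPKM *Dnmt3b* kept 18.5% of its DMSO level and *Fgf15* kept 13.2%. *Tcf15*, a bHLH factor gene linked to priming, was at 36.5, 16.9, 35.4 and 15.9 FPKM in the same order. Its log2 ratios were -1.07 and -1.10, and they were no longer past 2-fold under any of the 3 scalings. *Etv4*, an ETS factor gene downstream of FGF signalling, was higher with AA. In PBS it was at 1.12 FPKM with DMSO and 2.32 with GSK-J4, and in AA at 5.83 and 6.07. The log2 ratios for AA were 1.69 in DMSO and 1.09 in GSK-J4, opposite to the direction of *Fgf15*. *Etv5*, also on this list and named after its values were seen, was more highly expressed and went the other way. It was at 147 FPKM with DMSO and 121 with GSK-J4 in PBS, and at 136 and 109 in AA. Its log2 ratios for AA were -0.11 in DMSO and -0.15 in GSK-J4.

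Of 14 listed genes of the ZIC, OTX, POU3, GBX, SOXB1 and SALL families, 6 have a value and 5 passed the filter. None of the 5 was at least 2-fold different in either comparison, with medians of -0.63 without AA and -0.39 with AA. Of all genes that passed the filter, 3.5% without AA and 3.38% with AA were at least 2-fold lower. At least 2-fold higher were 4.96% and 4.13%, so the count among so few genes says little about these families. Of 20 other FGF ligand genes, 6 have a value. Of these, 1 was at least 2-fold lower in both comparisons, beside 1.84% of all genes that passed the filter in both. This was *Fgf17*, a ligand of the FGF8 subfamily, at 15.8 FPKM with DMSO and 3.94 with GSK-J4 in PBS, and at 13.7 and 3.12 in AA. Its log2 ratios of -1.77 and -1.84 were close to those of *Fgf15*, while AA left 86.9% of it in DMSO and 79.3% in GSK-J4. The median of the 6 ligands, *Fgf17* included, was -0.01 without AA and -0.59 with AA. Of 9 FGF receptor and adaptor genes, 3 have a value, and none of these was at least 2-fold different in either direction with GSK-J4. Beside the same shares of all genes, this count is also too small to describe the receptors.

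**Figure D4:**
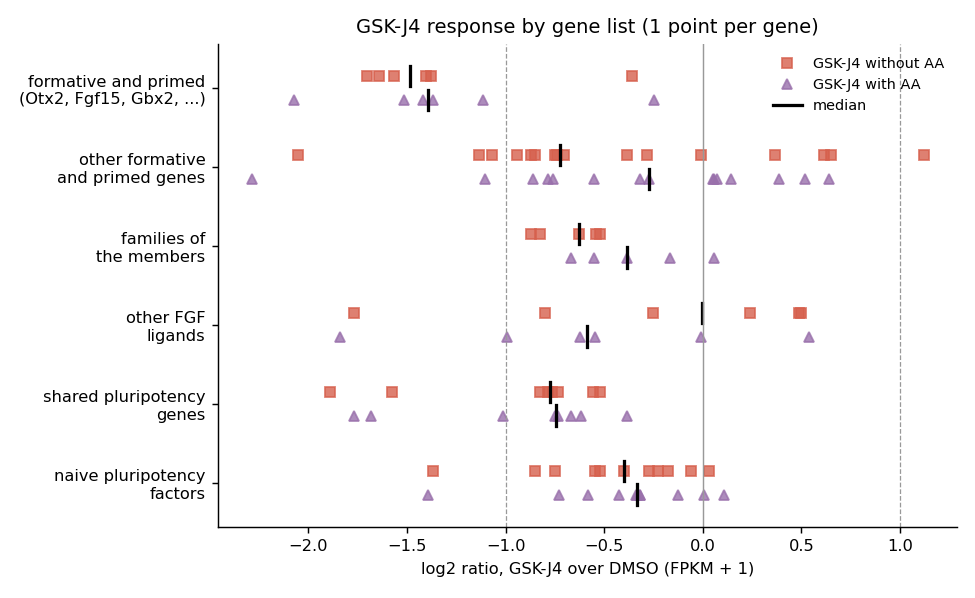
Log2 ratios of GSK-J4 over DMSO, on FPKM + 1, for the genes of 6 lists that passed the filter, without AA (squares) and with AA (triangles), with the median of each list as a black bar. The medians of the formative and primed genes lie at -1.48 and -1.39, those of the naive factors at -0.40 and -0.33. A few genes, such as *Sox2*, are in 2 lists.

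Of 13 listed naive factors, 11 have a value. A single one, *Dppa3*, a gene of naive and germ cells, was at least 2-fold lower in both comparisons, from 35.5 to 13.2 FPKM and from 39.3 to 14.3 FPKM, and its log2 ratio without AA was just under 2-fold (-0.996) after scaling to the same total. The median of the naive factors was -0.40 without AA and -0.33 with AA, and it was -0.01 and -0.02 after scaling to the same total. For AA it was 0.10 in DMSO and 0.11 in GSK-J4, where 7 and 9 of the 11 genes were higher. Of the 6 formative and primed genes that passed the filter, 5 were lower in each background. Of all genes that passed the filter, 62.4% and 55.4% were lower. Among 8 genes shared by naive and primed cells, all 8 were lower in both comparisons, as were 63.0% of all genes without AA and 62.2% with AA. Of the 8, 2 without AA and 3 with AA were at least 2-fold lower, beside 3.5% and 3.38% of all genes. In both comparisons these include *Lin28a*, an RNA-binding regulator of let-7 processing, at 26.2% and 30.2% of the DMSO level, and *Utf1*, a chromatin factor gene, at 33.2% and 28.9%. With AA *Tdgf1*, which encodes the Nodal co-receptor Cripto and was named after its value was seen, was the other, at a log2 ratio of -1.01. These differences between lists were not tested.

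Markers of other cell types were counted in the same way. Of 12 fibroblast markers of the feeder layer, 5 have a value, none of them at 0, and their summed FPKM was 20.2 and 18.3 in the DMSO libraries and 27.7 and 27.2 in the GSK-J4 libraries. *Fbln2* was at 5.44 FPKM with DMSO and 10.3 with GSK-J4 without AA, and at 5.62 and 9.71 with AA. Of the 5 markers, 4 were higher and 1 was lower with GSK-J4 in each comparison, and none was at least 2-fold different. Of all genes that passed the filter, 63.0% without AA and 62.2% with AA were lower. At least 2-fold higher were 4.96% and 4.13%, and at least 2-fold lower 3.5% and 3.38%. The marker count depends on the scaling, since *Fbln2* without AA was at 1.05 after division by the upper quartile and 1.15 at equal totals. The lower one was *Thy1* without AA (log2 ratio -0.43) and *Col1a2* with AA (-0.18), both named after their values were seen. Of 10 mesoderm and primitive streak markers, 3 have a value, and their sum was 3.27 and 3.20 FPKM with DMSO and 7.84 and 6.07 with GSK-J4. *Mesp2* was at 1.32 and 1.64 FPKM with DMSO and 5.27 and 3.32 with GSK-J4. *Eomes*, named after its values were seen, was the highest of the 3 in PBS+DMSO, at 1.89 FPKM, and 1.72 in PBS+GSK-J4. Its log2 ratios for GSK-J4 were -0.09 without AA and 0.29 with AA. Of 14 neural progenitor markers, 3 have a value, with sums of 96.7 and 104 FPKM with DMSO and 68.6 and 69.3 with GSK-J4, nearly all from *Tubb3*. *Pax6*, named after its values were seen, was at least 2-fold lower under GSK-J4 without AA (log2 ratio -1.05). Its level there was 0.176 FPKM, against 1.44 for the vehicle. Both AA libraries were below 1 FPKM for *Pax6*, at 0.998 with DMSO and 0.472 with GSK-J4. *Nkx2-2*, a ventral neural tube factor gene named after its values were seen, went the other way. It was at 0.0731 FPKM in PBS+DMSO beside 2.28 with GSK-J4, and at 0.276 in AA+DMSO beside 2.07, and was at least 2-fold higher in both comparisons. The sums of the 4 primitive endoderm markers with a value, of 10 listed, lay between 103 and 108 FPKM, mostly from *Sparc*, and those of the 6 trophoblast markers with a value, of 10 listed, between 18.5 and 25.7, led by *Tfap2c*. The fibroblast and mesoderm sums were thus higher with GSK-J4, opposite to the formative and primed genes that passed the filter. The neural sum was lower, and the size of this difference depends on the scaling. *Tubb3* had log2 ratios of -0.52 without AA and -0.62 with AA, which shrank to -0.14 and -0.29 at equal totals. The part of these markers in the result was not tested.

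The genes whose levels over the 4 libraries were most like the formative and primed genes were found by the distance between log2(FPKM + 1) profiles, each centred on its own mean. Among 9357 genes, those nearest to the mean profile of the 6 members that reach 1 FPKM were *Emb* (distance 0.0537), *Efhd1* (0.118), *Hopx* (0.119), *Zfp207* (0.152) and *Slc6a15* (0.152). *Emb* was at 30.8 FPKM with DMSO and 11.7 with GSK-J4 in PBS, and at 25.5 and 9.70 in AA. The gene nearest to a single member was *Emb* for *Zic2*, *Ina* for *Zic5*, *Rhpn2* for *Otx2*, *Snrpa1* for *Gbx2*, *Ivns1abp* for *Sall2* and *Gap43* for *Fgf15*. The distance was 0.551 for *Fgf15* and between 0.0171 and 0.103 for the others, so no gene followed *Fgf15* closely over these 4 libraries. Because differences of weak genes come out too small on this scale, a stronger gene can lie near a weak member that kept a smaller share of its FPKM. The likeness was sought among 9357 genes over 4 libraries without replicates and was not tested.

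The genes lie on 4 chromosomes of mm10, and 4 of the 7 are on chromosome 14, which holds 3.37% of all genes with a value. *Zic5* (chromosome 14, 122456794 to 122464315, minus strand) and *Zic2* (122475358 to 122480329, plus strand) are neighbours in head-to-head orientation, with 11043 bases between their loci in the tables. *Otx2* lies from 48657300 to 48665448 and *Sall2* from 52311127 to 52328429 on the same chromosome, both on the minus strand. *Gbx2* is on chromosome 1 (89927898 to 89932692), *Fgf5* on chromosome 5 (98254663 to 98276988) and *Fgf15* on chromosome 7 (144896448 to 144900937). In GENCODE M21, exons of *Otx2*, *Gbx2* and *Fgf15* overlap exons on the other strand (*Otx2os1*, D130058E05Rik, and Gm26793 and Gm39119), and those of *Otx2* overlap Gm49154 on the same strand. The sources used here do not state that reads were counted by strand, so reads of the members cannot be told apart from reads of these genes.

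Promoter windows are shown for *Gbx2*, *Otx2* and *Zic5*, which were lower with GSK-J4, and for *Fgf5*, which stayed below 1 FPKM. Because *Fgf5* did not pass the filter, it is not shown to lack this difference. *Sall2*, which passed the filter with log2 ratios of -0.36 and -0.25, has windows that are not shown. RefSeq promoters on GRCm38.p6 were matched by symbol for 5 of the 7 genes. Each window holds 230 bases, from 250 to 21 bases before the RefSeq start, and none of the 4 overlaps a GENCODE exon of its gene, although that of *Gbx2* lies inside the longer locus of the tables. For *Otx2* the outermost of its 4 RefSeq starts is shown. Its window lies outside the *Otx2* locus given above, and what is found for *Otx2* depends on this choice of start. Capitals mark matches on either strand to one of the motifs searched. These were the SOX core, spelled ACAAAG, the CCAAT box, searched by the letters in its name, and the GC box, which reads GGGCGG. The E-box was searched as CACGTG, the TATA box was searched as TATAAA, and the octamer of POU factors was searched as well.
Gbx2 chr1:89931197-89931426 (- strand): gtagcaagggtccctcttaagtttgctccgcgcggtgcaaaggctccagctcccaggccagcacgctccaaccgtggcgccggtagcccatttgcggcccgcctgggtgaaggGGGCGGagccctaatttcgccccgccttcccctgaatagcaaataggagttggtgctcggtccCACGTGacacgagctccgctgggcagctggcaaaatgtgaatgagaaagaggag
Otx2 chr14:48667665-48667894 (- strand): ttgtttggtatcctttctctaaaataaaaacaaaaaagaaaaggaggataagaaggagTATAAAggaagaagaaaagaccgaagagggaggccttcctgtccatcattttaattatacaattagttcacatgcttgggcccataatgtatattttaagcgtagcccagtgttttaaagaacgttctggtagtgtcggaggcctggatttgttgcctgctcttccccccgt
Zic5 chr14:122465679-122465908 (- strand): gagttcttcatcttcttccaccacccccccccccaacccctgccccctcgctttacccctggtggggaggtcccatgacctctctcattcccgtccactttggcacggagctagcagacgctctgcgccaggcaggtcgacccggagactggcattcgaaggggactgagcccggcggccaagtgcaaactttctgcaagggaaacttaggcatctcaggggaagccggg
Fgf5 chr5:98253934-98254163 (+ strand): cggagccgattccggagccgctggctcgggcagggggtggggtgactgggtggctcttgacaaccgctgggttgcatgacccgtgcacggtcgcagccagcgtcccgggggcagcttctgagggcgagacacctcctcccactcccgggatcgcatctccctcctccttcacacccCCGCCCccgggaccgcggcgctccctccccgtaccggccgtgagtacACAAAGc

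No motif was found in all 4 windows, and only the GC box was found in more than 1 of them. *Gbx2* holds a GC box, found in 29.8% of all 32851 promoter windows, and the E-box, found in 5.35%. *Otx2* holds a TATA box, found in 11.8%, in the window shown. Its windows from 48662755 to 48662984 and from 48665130 to 48665359 overlap its locus. They hold none of the motifs and have 8 and 12 CpG dinucleotides. Its window from 48667529 to 48667758 holds a CCAAT box. *Fgf5* holds a GC box and a SOX core, the latter found in 15.4%, and *Zic5* holds none of these letters. The CCAAT box (32.2% of all windows) and the octamer (1.53%) were found in none of the 4 windows shown. The windows shown differ in CpG dinucleotides as well, with 22 in *Fgf5*, 16 in *Gbx2*, 11 in *Zic5* and 5 in *Otx2*, beside a median of 5 over all windows. Of these 4 windows, the one richest in CpG belongs to *Fgf5*, which stayed below 1 FPKM. The windows of *Sall2*, which are not shown, hold 6 and 0 CpG. A link between CpG content and these levels was not tested.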

How the data were processed

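RNA-Seq was performed by the authors on 4 libraries, 1 per condition. They removed duplicates from single-end reads, aligned with TopHat2 to mm10 and calculated FPKM with Cufflinks2. The deposited FPKM values are listed per coding sequence group in 2 tables, in columns headed log10 that hold linear values. The tables' fold changes, test statistics, p-values and q-values are the authors' own comparisons and were not used. The scaling between libraries is not given in the sources used here.

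FPKM was summed over the 11033 coding sequence groups per gene. Of 9936 gene names, 157 with a failed estimate were left out. Log2 ratios used a pseudocount of 1 and genes that reached 1 FPKM in either library, with a threshold of 2-fold. The calculation was tested on simulated data with known changes. No test was run because there is 1 library per condition.

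The tables hold no read counts. Steps of whole reads in low values place the depth of AA+DMSO at 0.795 of PBS+DMSO. For the GSK-J4 libraries, sets of depths that differ 2-fold scored almost alike, so their depth is not known.

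The members and gene lists were chosen with earlier results of these data known. Genes outside the group are named if they reached 5 FPKM in a library and were at least 2-fold different in both GSK-J4 comparisons or in either AA comparison, or as Pou5f1, Sox2, Nanog, the highest gene of a marker list or the nearest profile. Alternatives were pseudocounts, filters, thresholds, 3 scalings and the largest coding sequence group of each gene. Python 3.11.15, numpy 2.4.6, pandas 2.3.3 and matplotlib 3.10.9 were used.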

Additional observations from a re-analysis of the deposited data

Results flagged for a closer look

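The following genes moved in opposite directions under the same agent in the 2 backgrounds, with 1 library on each side, so the difference was not tested. For GSK-J4 without and with AA, the log2 ratios were -0.324 and 0.0285 for *Fgf5*, -0.0232 and 0.0363 for *Sparc*, and 0.30 and -0.25 for *Tfap2c*. For AA in DMSO and in GSK-J4, they were -0.20 and 0.16 for *Fgf5*, 0.0425 and -0.153 for *Utf1*, -0.0598 and 0.0765 for *Sox2*, 0.0386 and -0.0766 for *Fbln2*, and 0.18 and -0.54 for *Mesp2*. The opposite directions depend on the scaling for 3 of these genes. *Sparc* without AA was at 0.15, 0.25 and 0.36 after centring, division by the upper quartile and scaling to the same total, and was above 0 with AA as well. At equal totals *Tfap2c* was at 0.66 and 0.07, and *Sox2* for AA was at 0.0149 and 0.0995. The opposite directions of *Fbln2* depend on the summing of its coding sequence groups. With the largest group alone it was at -0.0158 for AA in DMSO and -0.327 in GSK-J4. *Fgf5* is the only member of the group among the genes listed here, and its values lie below 1 FPKM in all 4 libraries.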

How the results depend on the processing

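No paired analysis was possible because there is 1 library per condition. The 5 members at least 2-fold lower with GSK-J4 became 2 without AA and 1 with AA at a pseudocount of 5, where the medians of the members were -0.87 and -0.81, and 0 without AA and 1 with AA at a threshold of 4-fold. With AA, 4 were at least 2-fold lower under each of the 3 scalings, where *Zic5* lay between -0.958 and -0.897. Requiring 1 FPKM in both libraries also left 4, since *Fgf15* is then not tested, and so did requiring 5 FPKM in either, where *Zic5* is not tested. The 1 member at least 2-fold lower with AA in GSK-J4, *Fgf15*, was lost (0 members) at a pseudocount of 5, at a threshold of 4-fold and when 1 FPKM was required in both libraries. For AA in DMSO, 1 member was lower at a threshold of 1.5-fold. No member changed direction past 2-fold under any of these alternatives. The values of genes outside the group and the list medians were recomputed under the same alternatives, which was chosen after seeing the data. The median of the other formative and primed genes with AA turned to 0.02 after scaling to the same total. *Etv4* was 0.82 and 0.60 for AA at a pseudocount of 5. Over all genes, the 456 higher and 322 lower with GSK-J4 without AA became 746 and 509 at a pseudocount of 0.1, 112 and 136 at a pseudocount of 5. Equal totals gave 808 and 96. Depth limits the weakly expressed genes most, since *Fgf5* and *Fgf15* in AA+GSK-J4 lie below 1 FPKM.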

Other observations

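Within the list of other formative and primed genes, several weakly expressed genes differed between the vehicle library and the other 3. They were chosen after their values were seen. *Grhl2*, an epithelial transcription factor gene of the formative state, was at 3.72 FPKM with DMSO and 1.15 with GSK-J4 in PBS, and at 1.42 and 1.51 in AA. *Esrp1*, an epithelial splicing regulator gene, was at 2.54, 0.839, 0.699 and 1.65 FPKM in the same order. *Lef1*, a factor of the Wnt pathway, was at 1.12, 0.266, 0.234 and 0.114 FPKM. In all 3 genes PBS+DMSO was the highest library. *Cldn6*, which encodes a tight junction protein, had its lowest level there, at 2.74 FPKM, beside 7.13, 4.81 and 5.42. These values are low and rest on 1 library each.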
